A study of Mus musculus with 8 samples.

Results

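The Notch signalling genes examined here were the receptors *Notch1* and *Notch2*, the ligands *Dll1*, *Dll3* and *Jag1*, and the target and related genes *Hes1*, *Hes5*, *Hes6*, *Hey1* and *Heyl*, in sympathetic ganglia of mouse embryos with normal and reduced *Isl1*. They were chosen by gene symbol, as the rows of these names in the expression tables of the 2 stages. Of the 13506 rows of the E11.5 table, 9 were of these genes, with *Hes5* not listed, and the 13413 rows of the E14.5 table held all 10. Every gene listed had an FPKM of at least 1, a level in fragments corrected for transcript length and library size, in 1 genotype or both, so a gene without a row gave no value here.

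Sympathetic ganglia were dissected at E11.5 from *Isl1* CKO embryos (*Wnt1-Cre;Isl1* f/f, given as Isl1-/- in the labels) and from control embryos (*Wnt1-Cre;Isl1* +/+), and both groups carried *Wnt1-Cre* and the *Rosa26-tdTomato* reporter. *Wnt1-Cre* acts in the neural crest and its derivatives, which include sympathetic neurons and their glia, whereas the endothelium of vessels and blood cells are outside that lineage. At E14.5, ganglia of hypomorphic embryos (*Isl1* f-neo/f-neo), whose germline allele lowers *Isl1*, were compared with ganglia of wildtype embryos. Each group had 2 libraries of polyA RNA from pooled ganglia, and the deposited tables give 1 FPKM value per gene and genotype, with both libraries combined. The spread between libraries and the depth were therefore unknown, and the values below are a description of 4 combined samples, with no replicate check and no test. FPKM is corrected for transcript length, so levels can be set side by side between genes, while the 2 tables were normalized separately and the controls of the 2 stages differed in genotype and dissection.

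Notch receptors are single-pass membrane proteins that are cut when a Delta or Jagged ligand on a neighbouring cell pulls on them. The released intracellular domain joins RBPJ in the nucleus and switches on repressors of the Hes and Hey families, which hold back proneural factors. In neural crest-derived ganglia, this pathway is known for keeping progenitors undifferentiated and for favouring glial over neuronal fate, and it also acts in blood vessels.

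The targeted gene, *Isl1*, a LIM homeodomain factor of sympathetic neurons, was at 133 FPKM in control and 40.0 FPKM in CKO ganglia at E11.5 (log2 ratio -1.73), and at 162 FPKM in wildtype and 83.1 FPKM in hypomorphic ganglia at E14.5 (log2 ratio -0.96). All 16 sympathetic neuron markers checked were listed in both tables, with *Stmn2* at 433 to 1182 FPKM and *Tubb3* at 658 to 1212 FPKM over the 4 groups. Of 8 neural tube markers, 7 had no row at each stage, with *Irx3* the gene listed at E11.5 (0.438 and 1.07 FPKM) and *Sox3* the gene listed at E14.5 (5.91 and 5.21 FPKM). Here a gene was counted as higher or lower when the FPKM values, each with 0.1 added, differed at least 1.5-fold, and log2 ratios are of mutant over control on that scale.

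All 9 Notch genes listed at E11.5 had higher values in *Isl1* CKO than in control ganglia, and 4 of them, *Dll3*, *Heyl*, *Hes1* and *Dll1*, were at least 1.5-fold higher. This was 44.4% of the 9, against 18.9% of all 13506 genes, and 0 of the 9 were at least 1.5-fold lower, against 12.9% of all genes. The study had already reported *Dll3*, *Heyl*, *Hes1* and *Dll1* as higher in the CKO from the same RNA-seq. By qPCR at about this stage, on sorted cells of the ganglia, it also reported a number of Notch pathway genes as higher. The 10 genes were chosen with earlier results known, so this share is not independent of that choice. Among the 7071 genes whose control level lay within the range of these 9 genes, 14.4% were at least 1.5-fold higher. The median log2 ratio of the 9 genes was 0.51, with a median over all genes of 0.05 and quartiles of -0.31 and 0.45, and 53.9% of all genes had a ratio above 0. At E14.5 the pattern was different, with 7 genes above and 3 genes below the wildtype value and 0 of 10 past 1.5-fold in either direction, where 2.89% of all genes were higher and 2.12% lower. The median log2 ratio of the 10 genes at E14.5 was 0.10, beside 0.003 for all genes.

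**Figure D1:**
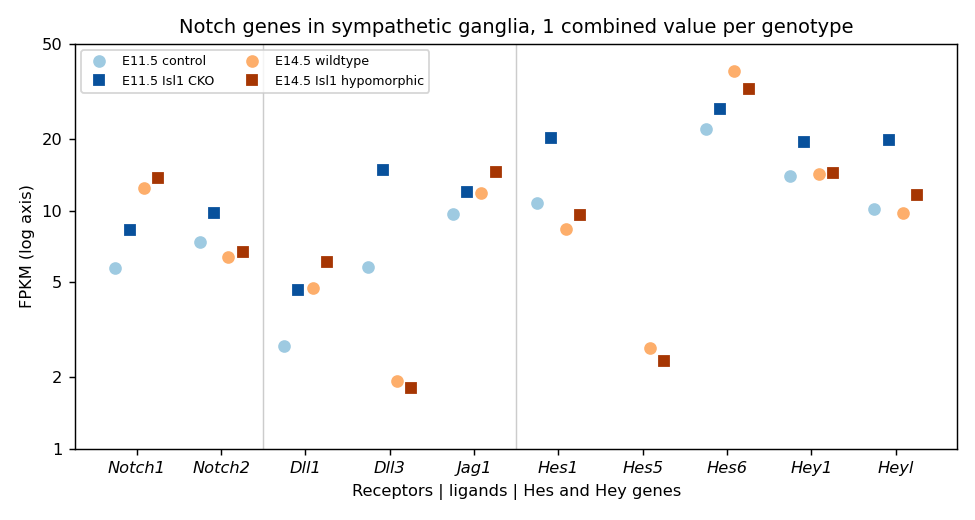
FPKM of the 10 Notch genes (log axis) in E11.5 control and *Isl1* CKO and in E14.5 wildtype and hypomorphic ganglia, as 1 combined value per genotype, so no error bar can be drawn. The E11.5 CKO point lies above the E11.5 control point for all 9 genes listed at that stage, with the widest gap for *Dll3* (5.80 and 14.8 FPKM), and *Hes5* has points at E14.5 only.

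*Notch1* encodes a receptor that is broadly used in neural and vascular development (chr2:26313423-26372183, minus strand, mm9). It was at 5.76 FPKM in control and 8.26 FPKM in CKO ganglia at E11.5, and at 12.4 FPKM in wildtype and 13.7 FPKM in hypomorphic ganglia at E14.5. The E11.5 difference was 1.43-fold (log2 ratio 0.51), below the 1.5-fold limit, and the E14.5 log2 ratio was 0.14. *Notch2*, a second receptor (chr3:97817461-97954290, plus strand, mm9), was at 7.36 and 9.79 FPKM in control and CKO ganglia and at 6.40 and 6.69 FPKM in wildtype and hypomorphic ganglia. Its log2 ratios were 0.41 and 0.06, so *Notch1* and *Notch2* had their larger difference at E11.5. *Notch3*, the receptor of vascular mural cells and the most abundant of the family in control ganglia at E11.5, was at 8.40 and 11.4 FPKM at E11.5 and at 14.1 and 17.02 FPKM at E14.5 (log2 ratios 0.44 and 0.27). *Notch4*, an endothelial receptor, was at 1.14 and 1.24 FPKM and at 2.34 and 2.74 FPKM (log2 ratios 0.12 and 0.22), and had its larger ratio at E14.5. Summed over *Notch1* to *Notch4*, receptor FPKM was 22.7 in control and 30.7 in CKO ganglia (1.36-fold) and 35.3 in wildtype and 40.1 in hypomorphic ganglia (1.14-fold).

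Among the ligands, *Dll3* stood apart. *Dll3* encodes a divergent Delta protein that stays mostly inside the cell and does not activate receptors on neighbouring cells (chr7:29076673-29087257, minus strand, mm9). It was at 5.80 FPKM in control and 14.8 FPKM in CKO ganglia at E11.5, and at 1.93 FPKM in wildtype and 1.80 FPKM in hypomorphic ganglia at E14.5. The E11.5 difference was 2.53-fold (log2 ratio 1.34), the largest of the 9 genes, and 4.798% of all genes had a ratio at or above it, whereas the E14.5 ratio was -0.10. *Dll1*, an activating Delta ligand made by differentiating neuroblasts (chr17:15504318-15513836, minus strand, mm9), was at 2.71 and 4.63 FPKM at E11.5 and at 4.75 and 6.06 FPKM at E14.5. Its E11.5 difference was 1.68-fold (log2 ratio 0.75, with 13.8% of all genes at or above it) and its E14.5 log2 ratio, 0.34, was the highest of the 10 genes at that stage. *Jag1*, a Jagged ligand (chr2:136907192-136942380, minus strand, mm9), was at 9.70 and 11.9 FPKM at E11.5 and at 11.9 and 14.5 FPKM at E14.5. Its log2 ratios, 0.30 and 0.29, were nearly alike at the 2 stages, unlike those of *Dll3* and *Dll1*.

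The promoters of the Delta genes are shown because these were the ligands past 1.5-fold at E11.5, and because RBPJ and Hes proteins, through which the pathway acts on its own genes, bind short DNA motifs. Sequences are from RefSeq (GRCm38.p6) and run from 250 bases before to 50 bases after a start site, 5′ to 3′ on the gene strand. Capitals would mark the RBPJ motif TGGGAA or its complement TTCCCA, and these 3 windows hold no match. For *Dll1*, 2 start sites are given.
*Dll3*, chr7:28301736-28302035, minus strand: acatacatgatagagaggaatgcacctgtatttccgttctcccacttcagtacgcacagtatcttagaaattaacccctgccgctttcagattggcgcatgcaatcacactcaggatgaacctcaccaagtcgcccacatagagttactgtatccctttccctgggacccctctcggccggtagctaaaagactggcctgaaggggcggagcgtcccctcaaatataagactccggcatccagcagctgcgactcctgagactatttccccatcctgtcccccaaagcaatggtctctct
*Dll1*, chr17:15376883-15377182, minus strand: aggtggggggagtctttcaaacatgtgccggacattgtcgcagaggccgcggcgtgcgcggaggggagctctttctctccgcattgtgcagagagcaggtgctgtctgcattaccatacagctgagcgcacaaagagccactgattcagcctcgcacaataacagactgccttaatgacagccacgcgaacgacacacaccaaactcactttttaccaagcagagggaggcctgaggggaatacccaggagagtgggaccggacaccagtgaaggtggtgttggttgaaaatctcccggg
*Dll1*, chr17:15375774-15376073, minus strand: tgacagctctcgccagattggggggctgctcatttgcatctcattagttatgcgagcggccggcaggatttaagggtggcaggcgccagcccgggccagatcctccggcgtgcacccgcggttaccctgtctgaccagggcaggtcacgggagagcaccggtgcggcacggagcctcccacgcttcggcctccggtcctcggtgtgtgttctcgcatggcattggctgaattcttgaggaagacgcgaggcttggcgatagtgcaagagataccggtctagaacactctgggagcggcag

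The 3 ligands of the group were set beside the other ligand genes. *Dll4*, a Delta ligand of endothelium, was at 1.29 FPKM in control and 2.19 FPKM in CKO ganglia (log2 ratio 0.72), and *Jag2*, a second Jagged ligand, was at 13.3 FPKM in control and 8.36 FPKM in CKO ganglia (log2 ratio -0.67). The 4 ligands that activate Notch, *Dll1*, *Dll4*, *Jag1* and *Jag2*, summed to 27.0 FPKM in control and 27.1 FPKM in CKO ganglia, a ratio of 1.003. The make-up of that sum differed. The Delta genes *Dll1* and *Dll4* summed to 4.003 FPKM in control and 6.81 FPKM in CKO ganglia (1.702-fold), while the Jagged genes summed to 23.0 and 20.3 FPKM (0.88-fold). Jagged genes thus held 85.2% of activating ligand FPKM in control ganglia but 74.9% in the CKO, and *Dll1* alone held 10.03% and 17.1%. At E14.5, the activating ligands summed to 51.6 FPKM in wildtype and 53.3 FPKM in hypomorphic ganglia, with Jagged shares of 86.6% and 83.7%.

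**Figure D2:**
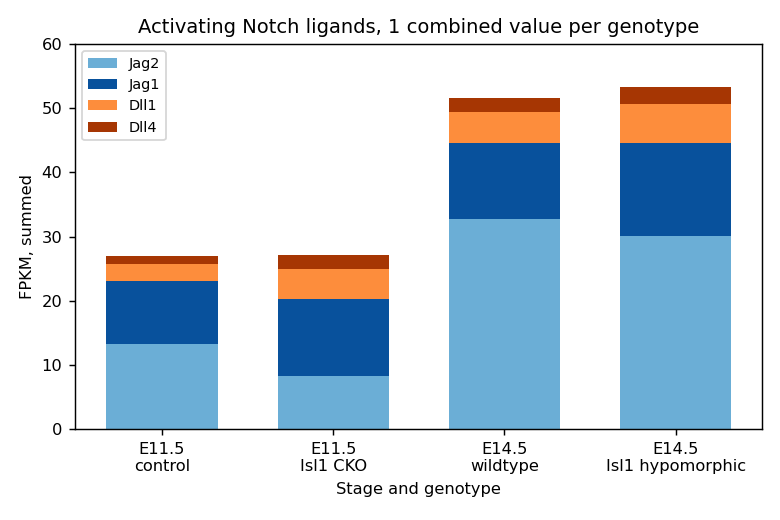
Stacked bars of FPKM for the activating ligands *Jag2*, *Jag1*, *Dll1* and *Dll4* in the 4 groups, as 1 combined value per genotype without error bars. The E11.5 bars have nearly the same height (27.0 and 27.1 FPKM), with less *Jag2* and more *Dll1* and *Dll4* in CKO ganglia.

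The target genes fell into those with a difference near 1.9-fold and those with a smaller one. *Hes1*, a bHLH repressor that is switched on directly by RBPJ (chr16:30064470-30067882, plus strand, mm9), was at 10.7 FPKM in control and 20.1 FPKM in CKO ganglia at E11.5, and at 8.37 FPKM in wildtype and 9.62 FPKM in hypomorphic ganglia at E14.5. The differences were 1.87-fold (log2 ratio 0.90, with 10.2% of all genes at or above it) and a log2 ratio of 0.20. *Heyl*, a Hey family repressor that is also known from vascular smooth muscle (chr4:122910799-122927118, plus strand, mm9), was at 10.1 and 19.7 FPKM at E11.5 and at 9.79 and 11.6 FPKM at E14.5. Its E11.5 difference was 1.93-fold (log2 ratio 0.95, with 9.34% of all genes at or above it) and its E14.5 log2 ratio was 0.24. *Hey1*, which acts with its relatives in vascular development (chr3:8663362-8667039, minus strand, mm9), was at 13.998 and 19.4 FPKM at E11.5 (log2 ratio 0.46) and at 14.2 and 14.3 FPKM at E14.5 (log2 ratio 0.02). The 3 repressors were thus higher in CKO ganglia by different amounts, and close to wildtype in hypomorphic ganglia.

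*Hes6* and *Hes5* behaved differently from the other target genes. *Hes6*, a relative of the Hes repressors that opposes HES1 and favours neuronal differentiation (chr1:93308060-93310615, minus strand, mm9), was the most abundant of the 10 genes in all 4 groups. It was at 22.1 FPKM in control and 26.7 FPKM in CKO ganglia at E11.5, and at 38.7 FPKM in wildtype and 32.3 FPKM in hypomorphic ganglia at E14.5. Its log2 ratio was 0.27 at E11.5, the smallest of the 9 genes, with 34.2% of all genes at or above it, and it was -0.26 at E14.5, the lowest of the 10. *Hes5*, a direct Notch target of neural progenitors (chr4:154335032-154336480, plus strand, mm9), was at 2.65 FPKM in wildtype and 2.34 FPKM in hypomorphic ganglia (log2 ratio -0.17), and its E11.5 level was not analysed here. At E14.5, *Hes5* was thus below *Hes1*, *Hey1* and *Heyl* in both genotypes.

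The promoter of *Hes5* is shown because it was the promoter with RBPJ motif matches among the 9 entries available for 7 of the 10 genes. Capitals mark the 2 matches, TTCCCA and, nearer to the start site, TGGGAA, both of them before it.
*Hes5*, chr4:154960673-154960972, plus strand, GRCm38.p6: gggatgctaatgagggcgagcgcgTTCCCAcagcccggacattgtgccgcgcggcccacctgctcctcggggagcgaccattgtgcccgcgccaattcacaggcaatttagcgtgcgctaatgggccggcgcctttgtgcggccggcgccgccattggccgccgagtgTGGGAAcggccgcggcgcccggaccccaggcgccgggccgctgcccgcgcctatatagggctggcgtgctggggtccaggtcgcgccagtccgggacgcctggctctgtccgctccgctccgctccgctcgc

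Of all 32851 promoters of this length, 25.6% held at least 1 match to TGGGAA on either strand and 3.79% held 2 or more. The N box CACNAG, a motif bound by Hes repressors, was found in 42.5% of all promoters and in 1 or more entries of *Notch1*, *Notch2*, *Dll1* and *Hes6*. The class B E box CACGTG was found in 7.15% of all promoters and in 0 of the 9 entries. The *Hes5* entry, which holds TGGGAA, had a match to neither of the other motifs. A match is a description of these letters in this window, and the data here hold no measurement of binding.

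**Figure D3:**
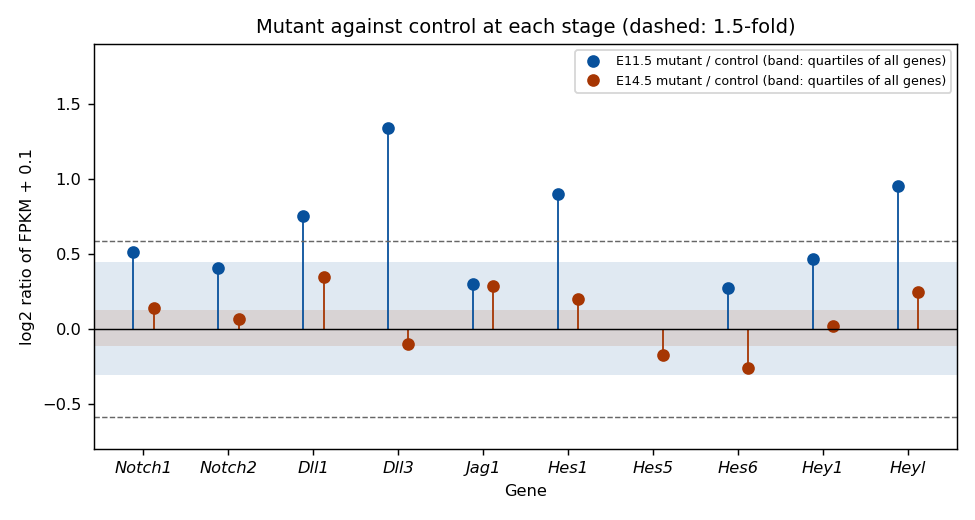
log2 ratio of mutant over control (FPKM + 0.1) for the 10 Notch genes at each of the 2 stages, with bands from the lower to the upper quartile of all genes and dashed lines at 1.5-fold. *Dll1*, *Dll3*, *Hes1* and *Heyl* pass the upper dashed line at E11.5, and all 10 points lie between the lines at E14.5.

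The ratio of a gene at E11.5 varied with transcript length over the whole table. For the 92.2% of genes with a transcript length in the mm9 annotation, cut into 5 length classes of equal size, the median log2 ratio was 0.27 in the shortest class and -0.23 in the longest, and 29.7% and 10.5% of the genes in these classes were at least 1.5-fold higher in CKO ganglia. All 9 Notch genes lay above the median of their own length class, by 0.005 to 1.18 on the log2 scale. *Hes6* was nearest to that median, as 49.7% of genes of its length had a ratio at or above its own. *Hes1*, in the shortest class, lay 0.64 above its median, with 18.0% of genes at or above it. *Heyl* and *Dll3* lay 0.99 and 1.18 above the medians of their classes, with 5.74% and 5.98% of genes at or above them, and the long genes *Notch1*, *Notch2* and *Jag1* lay 0.74, 0.63 and 0.52 above the median of the longest class. The part of transcript length in these differences was not tested.

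The remaining pathway genes did not share the direction of the 9 genes as a whole, though those of some roles did. These 50 genes included other receptors, ligands and target genes, and genes of ligand processing, receptor cleavage, the nuclear complex and turnover. At E11.5, 45 were listed, 25 of them above and 20 below the control value, with a median log2 ratio of 0.02. The 2 other receptors and the 2 other target genes listed were all above control (median log2 ratios 0.28 and 0.70). Of the other ligands listed, 2 were above and 2 below, and of the nuclear complex 3 were above and 5 below (median -0.34). At least 1.5-fold higher were 5 genes (11.1%, beside 18.9% of all genes) and at least 1.5-fold lower were 6 of the 45 (beside 12.9% of all genes), which is near the share in the whole table. The 5 higher genes were *Dll4*, *Dner*, *Mfng*, *Psen2* and *Hey2*. *Dner*, a neuronal membrane protein with Delta-like EGF repeats, was at 2.15 FPKM in control and 8.76 FPKM in CKO ganglia (log2 ratio 1.98), the largest ratio of the pathway. *Mfng*, a fringe enzyme that adds sugars to Notch and shifts its preference between Delta and Jagged ligands, was at 4.88 and 9.52 FPKM (log2 ratio 0.95). *Psen2*, a catalytic subunit of the gamma-secretase that frees the Notch intracellular domain, was at 4.51 and 8.85 FPKM (log2 ratio 0.96). *Hey2*, the remaining Hey repressor, was at 4.91 and 8.86 FPKM (log2 ratio 0.84). With *Hes1*, *Hey1* and *Heyl*, it made a repressor sum of 39.8 FPKM in control and 68.0 FPKM in CKO ganglia (1.71-fold), and of 51.9 and 56.9 FPKM in wildtype and hypomorphic ganglia (1.10-fold).

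The 6 lower genes included *Jag2*, *Neurl1b* and genes of the nuclear complex. *Neurl1b*, a ubiquitin ligase for ligand endocytosis, was at 2.57 FPKM in control and 0.755 FPKM in CKO ganglia (log2 ratio -1.64). *Spen*, a large corepressor that binds RBPJ, was at 10.6 and 4.23 FPKM (log2 ratio -1.31). *Maml3*, a coactivator of the Notch complex, was at 8.14 and 5.09 FPKM (log2 ratio -0.67), and *Kat2b*, an acetyltransferase, was at 5.28 and 2.69 FPKM (log2 ratio -0.95). The lower nuclear genes thus included a corepressor as well as coactivators. *Spen*, *Maml3* and *Neurl1b* were in the longest length class, and lay 1.08, 0.44 and 1.42 below its median. *Rbpj* itself was at 36.7 and 37.0 FPKM (log2 ratio 0.01).

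The most abundant genes of 7 further roles were each less than 1.5-fold from control at E11.5. *Snw1*, a cofactor of the nuclear complex, was at 51.0 and 50.6 FPKM, and *Poglut1*, which adds glucose to Notch, was at 29.5 and 28.6 FPKM. *Psenen*, a small subunit of gamma-secretase, was at 104 and 140 FPKM (log2 ratio 0.43), and *Tle4*, a Groucho corepressor, was at 24.5 and 18.9 FPKM (log2 ratio -0.38). *Dtx3*, of the Deltex family, was at 23.5 and 19.4 FPKM (log2 ratio -0.27), and *Mib1*, the main ubiquitin ligase for Notch ligands, was at 13.7 and 9.27 FPKM (log2 ratio -0.56). *Dlk1*, a ligand-like protein without the DSL domain of Delta ligands and the most abundant gene of the pathway in 3 of the 4 groups, was at 162 and 109 FPKM at E11.5 (log2 ratio -0.57) and at 260 and 346 FPKM at E14.5 (log2 ratio 0.42). At E14.5, 46 of the 50 genes were listed, 0 were at least 1.5-fold higher (beside 2.89% of all genes) and 1 was lower (beside 2.12%), *Dlk2*, a relative of *Dlk1*, at 4.88 and 3.08 FPKM (log2 ratio -0.65). Their median log2 ratio was 0.07, and *Aph1c*, *Hes2*, *Hes3* and *Hes7* were listed at neither stage.

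**Figure D4:**
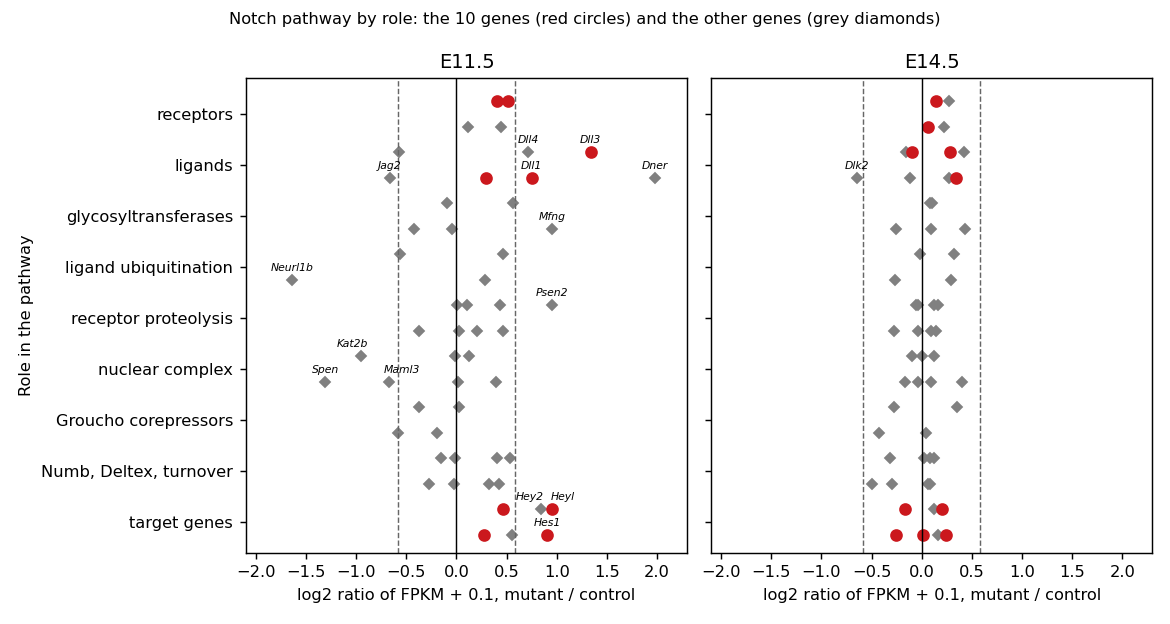
log2 ratio of mutant over control (FPKM + 0.1) by role in the pathway, for the 10 Notch genes (red circles) and the other listed genes (grey diamonds), with genes past 1.5-fold (dashed lines) named, and 1 gene not shown. At E11.5 the red circles lie to the right of 0 while grey diamonds lie on both sides, and at E14.5 *Dlk2* is the gene named.

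Proneural factors, which Hes and Hey proteins repress, were listed together with *Insm1*, and the list did not move as a group. *Insm1*, a zinc finger factor of newborn neurons, was at 70.9 FPKM in control and 29.8 FPKM in CKO ganglia (log2 ratio -1.25), and at 63.2 and 57.6 FPKM at E14.5. Of the 5 genes of this list with a row at E11.5, 3 were at least 1.5-fold higher in CKO ganglia, beside 18.9% of all genes. These 3 were below an FPKM of 5, with *Neurog2* at 0.212 and 2.70 FPKM, *Neurod1* at 1.66 and 3.05 FPKM, and *Neurod4* at 0.426 and 1.35 FPKM. At E14.5, *Neurod1*, a late neurogenic factor, was at 1.304 FPKM in wildtype and 2.48 FPKM in hypomorphic ganglia (log2 ratio 0.88), and *Neurog1* was listed at neither stage. In CKO ganglia, where *Hes1* and *Heyl* were higher, *Neurog2*, *Neurod1* and *Neurod4* were above the control level, and *Insm1* was below it. A link between these values was not tested.

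Most markers of cells other than neurons also had higher values in CKO ganglia at E11.5. Of all genes, 53.9% had a ratio above 0, 18.9% were at least 1.5-fold higher and 12.9% at least 1.5-fold lower. Of 17 neural crest and glial markers, 16 had higher values in CKO ganglia and 15 were at least 1.5-fold higher, with a median log2 ratio of 1.06 and summed levels of 446 FPKM in control and 941 FPKM in CKO ganglia. Among them were *Fabp7*, at 90.9 and 207 FPKM, and *Ednrb*, at 89.98 and 200.3 FPKM. All 10 mesenchyme markers had higher values, 7 of them at least 1.5-fold (sums 602 and 1048 FPKM), with *Col1a1* at 175 and 303 FPKM and *Col1a2* at 193 and 352 FPKM. Of 10 mural markers, 9 had higher values and 4 were at least 1.5-fold higher (sums 149 and 224 FPKM), with *Acta2* at 51.2 and 101 FPKM and *Mcam* at 33.6 and 46.9 FPKM, while *Rgs5*, a pericyte marker, was at 20.2 and 6.30 FPKM (log2 ratio -1.67). All 14 endothelial markers had higher values and 4 were at least 1.5-fold higher (sums 96.5 and 129 FPKM), with *Cdh5* at 11.05 and 12.6 FPKM and *Pecam1* at 12.5 and 14.2 FPKM. The summed level of the 12 erythroid markers listed was 10923 FPKM in control and 69545 FPKM in CKO ganglia, with *Hba-x* at 2572 and 53627 FPKM and *Hbb-y* at 7552 FPKM in control and listed at 0 in CKO ganglia. Of 16 sympathetic neuron markers, 2 had higher values and 8 were at least 1.5-fold lower (sums 3587 and 2897 FPKM), and of 12 cell cycle genes 0 had higher values and 10 were at least 1.5-fold lower, with *Pcna* at 310 and 196 FPKM and *Rrm2* at 192 and 76.9 FPKM. The part of these cell types in the Notch gene differences was not tested, and in pooled ganglia more cells of a type and more RNA per cell cannot be told apart.

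Markers of neighbouring tissues were at low levels. Of 8 sensory neuron markers, 6 were listed at E11.5 and all 6 had higher values in CKO ganglia (sums 11.6 and 18.2 FPKM). Among them was *Ntrk2*, at 5.18 and 6.755 FPKM, and 3 of the 6 were at least 1.5-fold higher, beside 18.9% of all genes. Of 8 paraxial mesoderm markers, a tissue rich in *Dll1* and *Dll3*, 3 were listed at E11.5 (sums 9.51 and 14.7 FPKM). *Meox1* was at 3.99 and 8.33 FPKM, *Tcf15* at 2.71 and 3.79 FPKM and *Ripply2* at 2.80 and 2.61 FPKM. *Tbx6*, *Mesp2* and *Msgn1* of the same list had no row, and so gave no value here. The part of these tissues in the Notch gene differences was not tested.

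At E14.5, the neural crest and glial markers summed to 602 FPKM in wildtype and 668 FPKM in hypomorphic ganglia. Of these 17, 0 were past 1.5-fold higher, beside 2.89% of all genes. The endothelial markers had higher values for 14 of 14 genes (sums 135 and 186 FPKM, median log2 ratio 0.47), and the cell cycle genes for 12 of 12 (median log2 ratio 0.53). The median log2 ratio of the Notch genes was 0.10 at this stage. It was 0.12 for the neural crest and glial list, 0.25 for the mural list, 0.25 for the mesenchyme list and 0.003 for all genes. The part of these cell types in the Notch gene values was not tested.

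**Figure D5:**
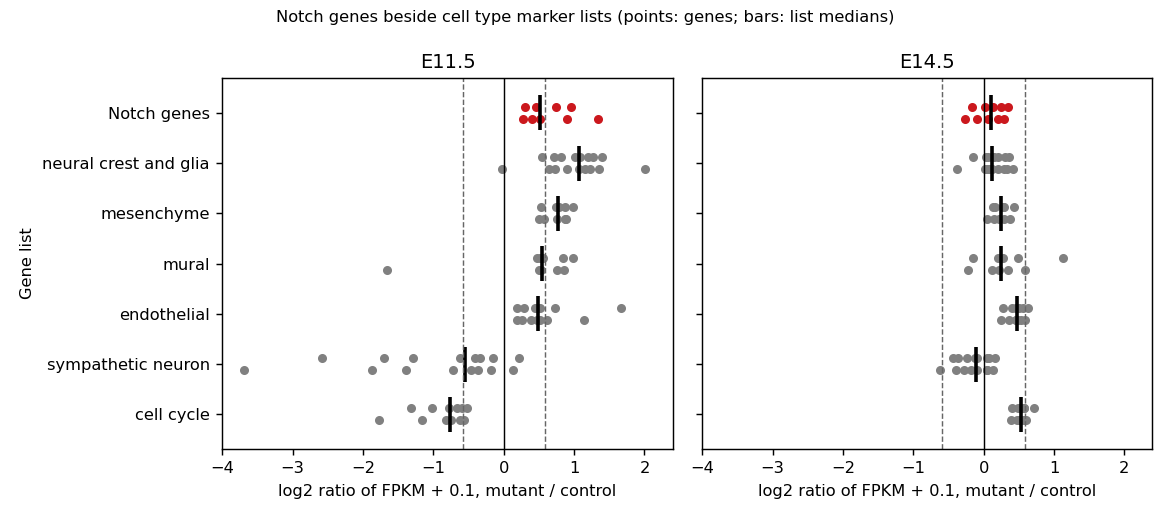
log2 ratio of mutant over control (FPKM + 0.1) at each stage for the Notch genes and 6 marker lists, with a point per gene, black bars at list medians and dashed lines at 1.5-fold. At E11.5 the Notch median (0.51) lies between 0 and the neural crest and glial median (1.06), close to the mural (0.54) and endothelial (0.48) medians, and at E14.5 the endothelial (0.47) and cell cycle (0.53) medians lie farther right than the Notch median (0.10).

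The Notch genes were also expressed per unit of marker transcript. Per 100 FPKM of *Sox10*, the defining factor of neural crest and glia, *Heyl* was at 34.6 in control ganglia against 33.3 in the CKO (ratio 0.96). For *Hes1* these values were 36.5 and 33.9 (ratio 0.93). *Dll3* was at 19.8 and 24.996 per 100 FPKM of *Sox10* (ratio 1.26), and it was the gene of the 9 with a ratio above 1. *Dll1* had a ratio of 0.84, *Notch1* of 0.71 and *Hes6* of 0.60, the lowest. *Sox10* was chosen for this comparison with its values known, and was at 29.3 and 59.3 FPKM. Per unit of *Erbb3*, a glial receptor, 4 of 9 genes had a ratio above 1, with a range of 0.73 to 1.55. Per unit of *Col1a1*, a mesenchyme marker, 3 of 9 genes had a ratio above 1, with a range of 0.70 to 1.48, so this was not particular to glial genes. Per unit of *Pecam1*, an endothelial adhesion molecule, all 9 genes were above 1 (1.06 to 2.25). At E14.5, the 10 ratios per unit of *Sox10* ran from 0.79 to 1.204, and 5 of them were above 1.

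Set side by side, the levels of the controls differed between stages for some of the 9 genes listed in both tables. *Notch1* was at 5.76 FPKM in E11.5 control and 12.4 FPKM in E14.5 wildtype ganglia (log2 ratio 1.10), *Hes6* at 22.1 and 38.7 FPKM (0.81) and *Dll1* at 2.71 and 4.75 FPKM (0.79), and *Dll3* was at 5.80 and 1.93 FPKM (-1.54). Thus 3 genes were at least 1.5-fold higher and 1 lower at E14.5, against 29.7% and 12.8% of 12666 shared genes, whose median log2 ratio was 0.24. *Hey1* (0.02) and *Heyl* (-0.05) were at nearly the same level in both. Part of the pathway differed far more between the tables, as *Psenen* was at 104 and 6.79 FPKM, *Rbpj* at 36.7 and 8.04 FPKM and *Aph1a*, a further gamma-secretase subunit, at 24.97 and 3.549 FPKM, so stage and table cannot be told apart here. Centred on the median of all genes, *Dll3* remained lower, and 1 gene was past 1.5-fold higher instead of 3.

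The order of the levels changed with genotype at E11.5. In control ganglia it ran from *Hes6*, *Hey1*, *Hes1* and *Heyl* through *Jag1*, *Notch2* and *Dll3* to *Notch1* and *Dll1*, and *Dll3* (5.80 FPKM) and *Notch1* (5.76 FPKM) were nearly equal. In CKO ganglia *Hes1* (20.1 FPKM), *Heyl* (19.7 FPKM) and *Hey1* (19.4 FPKM) were nearly equal behind *Hes6*, and *Dll3* stood above *Jag1* and *Notch2*. In wildtype ganglia at E14.5 *Dll3* was the lowest of the 10 genes, below *Hes5*. Without a spread between libraries, it is unknown which neighbours in these orders differ.

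The genes nearest in pattern were found from the 4 log2 values of each gene, centred on their mean, among 10516 genes that reached an FPKM of 5 in any group. For *Jag1* the nearest was another gene of the pathway, *Neurl1a*, a ubiquitin ligase for Notch ligands, at 11.3, 13.8, 13.6 and 16.6 FPKM in control, CKO, wildtype and hypomorphic ganglia, at a distance of 0.024 on the log2 scale (median over all genes 0.65). It was followed by *BC028528* and *Nfkb1*. *Heyl* was nearest to *Ifi30*, *Sema3c* and *Egflam*, at distances of 0.056 to 0.068, and *Hes1* to *Ndufa4l2*, *Gprc5c* and *Mapkapk2*, at 0.047 to 0.061. For *Dll3* the nearest were *Rplp0*, *Ftl1* and *Ass1*, at 0.16 to 0.22, where the median over all genes was 2.65. For the receptors, the nearest were *D8Ertd82e*, *Rgl1* and *Col5a1* for *Notch1* and *Ubxn1*, *Nxn* and *Six5* for *Notch2*. The nearest genes were *Lyz2*, *Rph3al* and *Slc9a9* for *Dll1*, *Hspbp1*, *Nprl2* and *Tango2* for *Hes6*, and *Zfp623*, *Apoa1bp* and *Lamp2* for *Hey1*. With 4 values per gene, closeness is a description of these samples.

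The scaling of the E11.5 table changed the share of all genes counted as higher. When CKO and control values were set to the same sum without erythroid genes, the all-gene median of the log2 ratio was lower by 0.23, and 35.3% instead of 59.4% of genes past 1.5-fold were higher. On this scale *Dll1* had a log2 ratio of 0.52, below 1.5-fold, so 3 instead of 4 Notch genes were counted as higher, beside 1652 of all 13506 genes. All 9 Notch genes kept a ratio above 0, with a median of 0.28 relative to an all-gene median of -0.18.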

How the data were processed

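RNA-seq data covered 8 libraries of mouse sympathetic ganglia in 4 groups of 2, mapped to groups by the labels. Reads were aligned with TopHat to mm9 and FPKM estimated with cuffdiff by the authors, per the study's methods, and the deposited FPKM is 1 value per gene and genotype. The submitters' processing notes list TopHat 1.3.1, Cuffdiff 1.3.0, Bowtie and the build dm3, a fly build. The deposited tables also hold the authors' log2 fold changes and p-values between genotypes, which were not used. Columns of samples outside the series numbered 0. No read numbers are given, so depth and precision are unknown. No value per library is given either, so no test was made.

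Log2 ratios of FPKM plus a pseudocount of 0.1 were computed within each table, and at least 1.5-fold was counted. Genes needed an FPKM of 1 in either genotype, which removed 0 genes at each stage. Between the controls of the 2 stages, the same limit in either control left 12666 of 12727 genes. Date-like symbols (22 and 23 rows) were left as they were. The members, gene lists and reference genes were chosen with earlier results of these data known. Genes were named when they were members, proneural factors, pathway genes past 1.5-fold or the most abundant of a role, the 2 most abundant of a marker list, or the 3 nearest in pattern to a member, and further genes (*Sox10*, *Erbb3*, *Tbx6*, *Mesp2*, *Msgn1*, *Tcf15*, *Notch4*, *Rgs5*, *Aph1a* and *Rbpj* at E11.5) were added with their values known. Some genes that this rule names, or that the lists count, are not reported here. Gene positions and transcript lengths came from GENCODE on mm9 (NCBIM37) and promoters from RefSeq (GRCm38.p6). *Hes1*, *Hey1* and *Heyl* had no promoter entry. Alternatives were other pseudocounts, filters, scalings and fold limits. Steps were tested on simulated data. Python 3.11.15, numpy 2.4.6, pandas 2.3.3 and matplotlib 3.10.9 were used.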

Additional observations from a re-analysis of the deposited data

Results flagged for a closer look

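For *Dll3* and *Hes6* the mutant stood above the control at E11.5 and below it at E14.5. The log2 ratio of *Dll3* was 1.34 at E11.5 and -0.10 at E14.5, and that of *Hes6* was 0.27 and -0.26. Each is 1 combined value per genotype, and the 2 mutants differ in allele as well as in stage, so the difference between stages was not tested.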

How the results depend on the processing

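No paired analysis was possible because the tables give 1 value per gene and genotype with both libraries combined, and for the same reason no replicate could be left out. Depth is unknown. Of 394 single-gene values under the alternatives, 0 changed sign past the limit and 3 moved by at least 0.58 on the log2 scale. All 3 were at a pseudocount of 1, with log2 ratios of -1.02 for *Neurl1b*, 1.61 for *Neurog2* and 0.72 for *Neurod4*. The 394 include the fold limits and the filters, which cannot change the log2 ratio of a gene, so those values were fixed in advance. The counts followed the fold limit. At E11.5, the 4 Notch genes counted as higher became 1 at 2-fold, 9 at 1.2-fold, and 3 at the same sum without erythroid genes (where *Dll1* was below the limit) and at an FPKM of 5 or more (which left out *Dll1*). Of all 13506 genes, 1137 were higher at 2-fold, 4697 at 1.2-fold and 1652 at that sum, and 1556 of 10274 at an FPKM of 5 or more. The other pathway genes became 1 and 17 higher and 2 and 13 lower at 2-fold and 1.2-fold, and 12 lower at the same sum without erythroid genes. Of all genes, 652, 3711 and 3027 were lower at these 3 settings. At E14.5, at 1.2-fold, 2 Notch genes were higher, 8 other pathway genes were higher and 8 lower, and 2 proneural factors were higher. Of all 13413 genes, 1638 were higher and 1209 lower at that limit. The 1 lower pathway gene at E14.5 became 0 at a pseudocount of 1, at an FPKM of 5 or more and at 2-fold. The proneural factors counted as higher became 0 at an FPKM of 5 or more at both stages, and 0 at 2-fold at E14.5. Between the control tables, the Notch genes counted as higher became 1 when centred on the median or at 2-fold, those lower became 2 when centred or at 1.2-fold, and 2 proneural factors were lower at 1.2-fold. Of all 12666 genes, 2435 were higher and 2471 lower when centred, 1729 were higher at 2-fold and 2900 lower at 1.2-fold. Of all genes counted between the control tables, 69.9% were higher, and 49.6% when centred and 58.7% at the same upper quartile. The median log2 ratio of all genes between the control tables was lower by 0.24 when centred, and by 0.14 when scaled to the same upper quartile.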
